A study of Bubalus bubalis with 6 samples.

Results

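The let-7 and miR-98 family was represented by 9 of the 273 miRNAs in the table: bta-let-7a-5p, bta-let-7b, bta-let-7c, bta-let-7d, bta-let-7e, bta-let-7f, bta-let-7g, bta-let-7i and bta-miR-98. Members were taken by name, as every miRNA called let-7 with a letter plus miR-98, and all names carry the bovine prefix bta. The samples were cell-free saliva of 3 healthy Murrah buffaloes (Bubalus bubalis), listed as wildtype. Each animal was sampled at estrus, the receptive phase around ovulation, and at diestrus, the luteal phase, which gave 6 small RNA libraries, 3 per phase. Ages and hormone levels are not given in the sources used here, and the labels name no treatment.

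let-7 miRNAs are short RNAs that guide Argonaute proteins to matching sites in messenger RNAs and lower their output. The members share the seed near the 5′ end that pairs with targets, and several differ from each other by single bases elsewhere. They are abundant in differentiated cells, where known targets include HMGA2, RAS family genes and LIN28, and LIN28 proteins in turn block the maturation of let-7 precursors. Because they are common in epithelium, blood cells and body fluids, reads in saliva do not point to a single source.

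The deposited normalized counts were whole multiples of 1 step per library, so whole reads could be recovered, 64277 in all. Depth was 6749 to 27036 reads at estrus and 3015 to 5548 reads at diestrus, so depth moved with phase and the 2 cannot be told apart. The estrus library of animal 3 stood apart: its Spearman correlation with the other libraries over the 58 tested miRNAs was at most 0.17. Unlike the others, its sample label also holds the words Repl and Saliva. What these words mean is not given in the sources used here, and their part in its values was not tested. In the diestrus libraries miR-1246, an unrelated small RNA, held 55.0 to 76.2% of reads, against 1.20 to 20.0% at estrus, which compresses every other share at diestrus. Shares and normalized counts are relative amounts; whether more cells released an RNA or each released more cannot be told apart in such samples.

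Family reads were abundant in the estrus libraries of animals 1 and 3 and scarce in the other 4 libraries. At estrus the 9 members together held 17.3% of reads in animal 1 (2918 reads, 95% Wilson interval 16.7 to 17.9), 1.44% in animal 2 (97 reads, 1.18 to 1.75) and 38.4% in animal 3 (10390 reads, 37.9 to 39.0). At diestrus they held 3.32% in animal 1 (100 reads, 2.73 to 4.02), 2.22% in animal 2 (123 reads, 1.86 to 2.64) and 0.752% in animal 3 (38 reads, 0.548 to 1.03). The phases overlapped, because animal 2 had a lower share at estrus than at diestrus. These intervals cover counting error only.

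Averaged over animals, the family held 19.1% ± 18.6 of estrus reads and 2.10% ± 1.29 of diestrus reads (mean ± SD over 3 libraries), so the difference of 17.0 percentage points was smaller than the spread at estrus. By animal the differences were 14.0, -0.78 and 37.7 percentage points. Without the estrus library of animal 3 the mean difference was 7.27 percentage points, and without that of animal 2 it was 25.8. No p-value is given for this sum, since the members were chosen with earlier results of these data known.

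Part of the gap in animal 1 went with miR-1246. Over the reads left after removing miR-1246, the family held 17.5%, 1.80% and 39.1% at estrus and 13.9%, 4.92% and 2.84% at diestrus in animals 1, 2 and 3. The difference within animal 1 was then 3.56 percentage points, while that within animal 3 was 36.3 and that within animal 2 was -3.12. On the deposited normalized scale the summed family counts were 1150, 175 and 1869 at estrus and 285, 200 and 65.3 at diestrus.

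**Figure D1:**
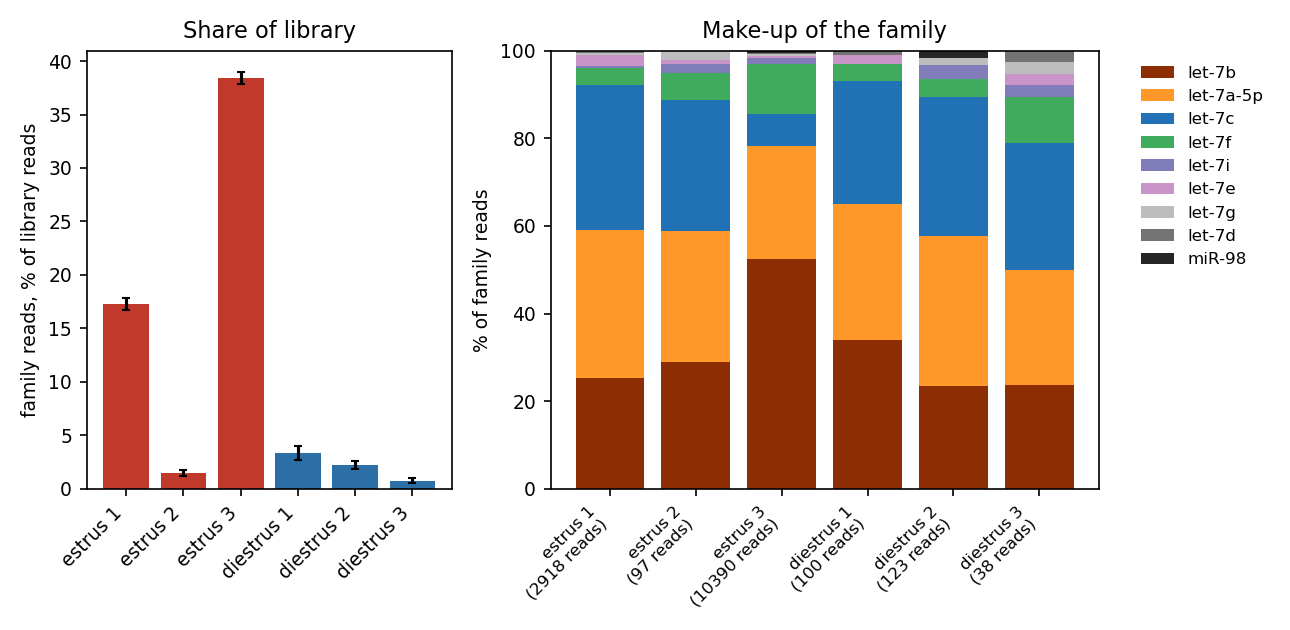
Left, percent of each library's reads held by the 9 family members, with 95% Wilson intervals (red, estrus; blue, diestrus). Right, percent of the family's reads held by each member; the estrus libraries of animals 1 and 3 reached 17.3% and 38.4% on the left, and that of animal 3 had the largest let-7b segment on the right, 52.5%.

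Most family reads in every library belonged to let-7a-5p, let-7b and let-7c together. These 3 held 92.2%, 88.7% and 85.6% of family reads at estrus and 93.0%, 89.4% and 78.9% at diestrus in animals 1, 2 and 3. let-7f followed, except in the estrus library of animal 3, where it exceeded let-7c. The 5 remaining members, let-7d, let-7e, let-7g, let-7i and miR-98, together held between 3.00% and 10.5%. Ordered by mean percent of family reads over the 6 libraries, the members were let-7b (31.3% ± 11.1), let-7a-5p (30.2% ± 3.57), let-7c (26.5% ± 9.55), let-7f (6.64% ± 3.42), let-7i (1.64% ± 1.24), let-7e (1.41% ± 1.09), let-7g (1.24% ± 1.02), let-7d (0.719% ± 1.01) and miR-98 (0.359% ± 0.646; SD over 6 libraries). Only the steps from let-7c to let-7f and from let-7f to let-7i exceeded the SD of the difference between those neighbours over the 6 libraries. Neighbours among the first 3 and among the last 5 did not differ beyond that spread. Each read stands for a whole mature miRNA, so no correction for length was made.

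let-7b, which in other mammals is encoded beside a let-7a copy, had the most reads of the members when libraries were summed, 6293, of which 5453 came from the estrus library of animal 3. It exceeded let-7a-5p in 2 of the 6 libraries. It had 740, 28 and 5453 estrus reads and 34, 29 and 9 diestrus reads in animals 1, 2 and 3, or 4.39%, 0.415% and 20.2% of reads against 1.13%, 0.523% and 0.178%. Animals 1 and 3 were high at estrus, and animal 2 was at the level of its own diestrus library. In the estrus library of animal 3 let-7b ranked first of all miRNAs, whereas it ranked 7th and 17th in the other estrus libraries and 6th, 20th and 19th at diestrus.

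let-7a-5p, for which mammals carry several gene copies, had 986, 29 and 2679 estrus reads and 31, 42 and 10 diestrus reads. Its share of the library was 5.84%, 0.430% and 9.91% at estrus and 1.03%, 0.757% and 0.198% at diestrus. It was lower at estrus in animal 2 and higher in the other 2 animals. It held from 25.8% to 34.1% of family reads over the 6 libraries.

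let-7c, which mammals encode beside miR-99a and miR-125b, had 965, 29 and 767 estrus reads and 28, 39 and 11 diestrus reads. These were 5.72%, 0.430% and 2.84% of reads at estrus and 0.929%, 0.703% and 0.218% at diestrus. Unlike let-7a-5p and let-7b, let-7c had its highest share in the estrus library of animal 1, not animal 3.

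let-7f, which mammals encode beside let-7a and let-7d and, as a second copy, beside miR-98, had 111, 6 and 1172 reads at estrus. At diestrus it had 4, 5 and 4 reads. Its share was 0.658%, 0.0889% and 4.33% at estrus and 0.133%, 0.0901% and 0.0791% at diestrus. The 3 diestrus values and the estrus value of animal 2 lay within each other's counting intervals.

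The 5 rarer members rested on few reads outside the estrus libraries of animals 1 and 3. let-7i had 16, 2 and 141 estrus reads and 0, 4 and 1 diestrus reads. let-7e, encoded beside miR-99b and miR-125a in mammals, had 70, 1 and 43 estrus reads and 2, 0 and 1 diestrus reads, so it was highest in animal 1. let-7g, which lies within a host gene in mammals, had 18, 2 and 52 estrus reads and 0, 2 and 1 diestrus reads. let-7d had 10, 0 and 35 estrus reads and 1, 0 and 1 diestrus reads. miR-98, which carries the let-7 seed under another name, had 2, 0 and 48 estrus reads and 0, 2 and 0 diestrus reads. Taking 3 reads as the floor, a count of 0 allows a share of up to 0.0995% of reads in the diestrus library of animal 1, 0.0541% in that of animal 2, 0.0593% in that of animal 3 and 0.0445% in the estrus library of animal 2.

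**Figure D2:**
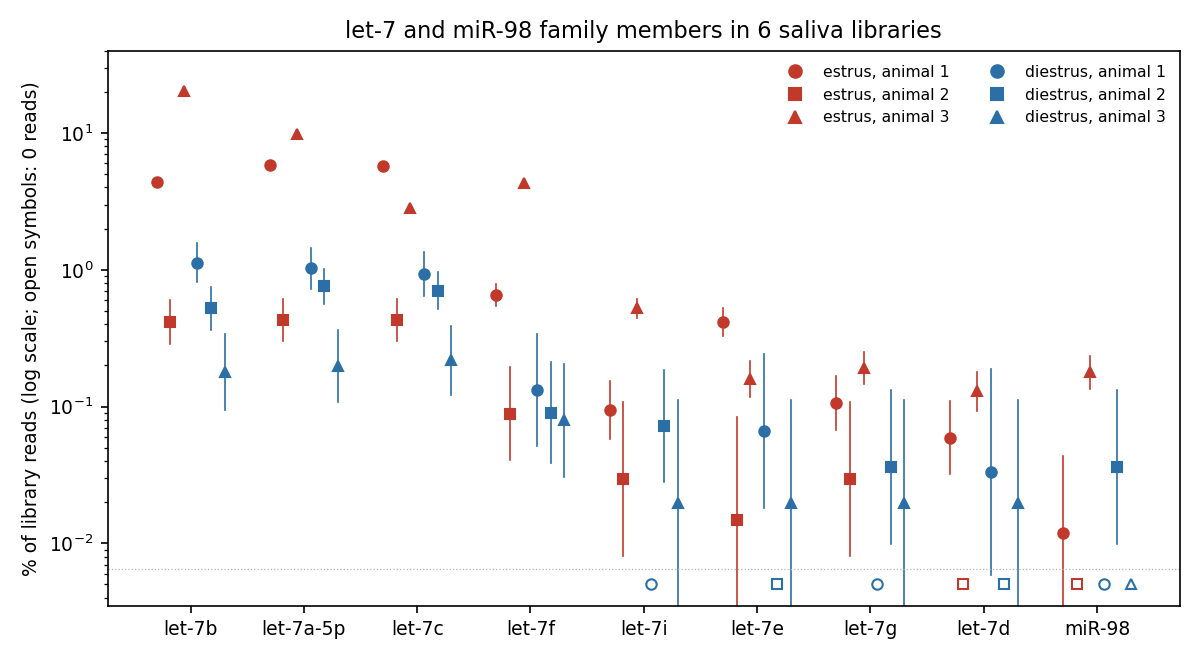
Percent of library reads for each member on a log axis, ordered by mean share of the family, with symbols for the animals, colors for the phases and 95% Wilson intervals; open symbols mark 0 reads. The estrus values of animals 1 and 3 lie above the diestrus values for let-7b, let-7a-5p, let-7c and let-7f, and those of animal 2 lie among the diestrus values.

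The number of members with at least 1 read was 9, 7 and 9 at estrus and 6, 7 and 8 at diestrus in animals 1, 2 and 3, which overlapped. Drawn down to 3015 reads, as in the shallowest library, 8.11, 5.81 and 8.97 members would be expected at estrus and 6, 6.52 and 6.36 at diestrus. With at least 3 reads required, 8, 4 and 9 members were detected at estrus and 4, 5 and 4 at diestrus.

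The balance of let-7a-5p and let-7c was near even in 5 libraries and uneven in the estrus library of animal 3. let-7a-5p and let-7c had almost equal reads in those 5: 986 and 965, 29 and 29, 31 and 28, 42 and 39, and 10 and 11. As a share of the pair's reads, let-7a-5p held 50.5% (48.3 to 52.8) in the estrus library of animal 1, and from 47.6% to 52.5% in the 4 smaller libraries, all with intervals that include 50%. In the estrus library of animal 3 it held 77.7% (76.3 to 79.1; 95% Wilson intervals). Equal counts at the depth of the estrus library of animal 1, 1951 reads for the pair, were thus measured with a narrow interval. How reads that fit several members were assigned is not given in the sources used here, so the split between these members is uncertain, and its part in the equal counts was not tested.

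In the estrus library of animal 1 the balance of let-7a-5p and let-7b was not even: let-7a-5p held 57.1% (54.8 to 59.4) of that pair.

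let-7b showed the same library standing apart, that of animal 3 at estrus. It held 52.5% of family reads in the estrus library of animal 3, against 25.4% and 28.9% in the other estrus libraries and 34.0%, 23.6% and 23.7% at diestrus. let-7b averaged 35.6% ± 14.8 of family reads in estrus libraries and 27.1% ± 5.99 in diestrus libraries (SD over 3). The difference of 8.48 percentage points was within the replicate error (exact two-sided permutation test, p = 0.5; the smallest p for 3 against 3 is 0.1). With animals paired the exact sign-flip test gave p = 0.75, where 3 pairs cannot go below 0.25. The share was lower at estrus in animal 1 and higher in animals 2 and 3. Without the estrus library of animal 3 the difference was 0.026 percentage points.

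Against let-7c the shift was wider. let-7b held 87.7% (86.8 to 88.5) of the reads of these 2 members in the estrus library of animal 3, and 42.6% to 54.8% in the other 5. let-7c held 7.38% of family reads there, against 28.0% to 33.1% in the other 5 libraries. let-7f held 11.3% of family reads in that library, close to the 10.5% that 4 of 38 reads gave at diestrus in animal 3, and 3.80% to 6.19% in the remaining 4. let-7f outnumbered let-7c only in the estrus library of animal 3, with 1172 against 767 reads. In both let-7b and let-7c share of the family, the estrus library of animal 3 lay outside the range of the other 5, while the phases overlapped.

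**Figure D3:**
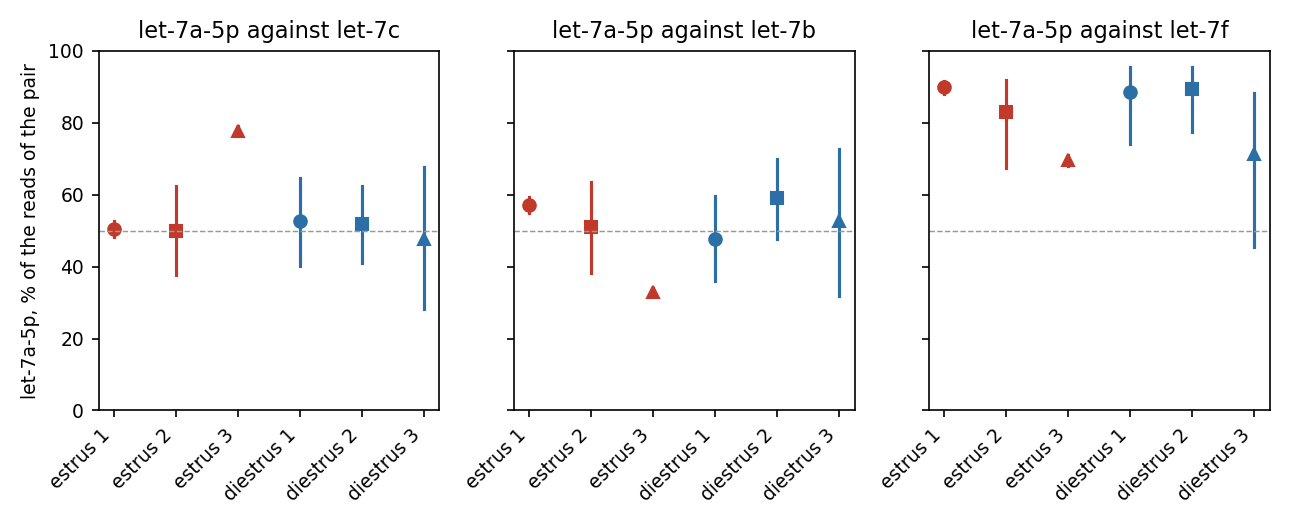
Share of let-7a-5p in the summed reads of let-7a-5p and 1 other member (let-7c, let-7b or let-7f, left to right), by library, with 95% Wilson intervals and a dashed line at 50%. Against let-7c the share lies between 47.6% and 52.5% in 5 libraries and at 77.7% in the estrus library of animal 3.

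Of the 9 members, 6 had a mean normalized count of at least 5 over the 6 libraries and entered the fit of 58 miRNAs: let-7a-5p, let-7b, let-7c, let-7e, let-7f and let-7i. let-7e and let-7i passed only through their estrus values, so counts over these 6 are a description. let-7d, let-7g and miR-98 did not enter. The fit was limma on log2(normalized count + 1), estrus minus diestrus, with Benjamini-Hochberg adjustment over the 58, and this scale understates changes of low miRNAs.

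No tested member differed between phases beyond the replicate error. At an adjusted p below 0.05, 0 of 6 members were called, beside 0 of all 58 (0%). Without adjustment, limma at the same threshold passed 0 of the 6, while 4 of all 58 (6.9%) passed as higher at estrus and another 4 as lower. With edgeR 0 members passed at either level, beside 0 of all 58 (0%) after adjustment and 10 (17.2%) before it. With DESeq2 0 members passed after adjustment, beside 0 of 58 (0%). Before it 2 passed, let-7b and let-7f, beside 8 of 58 (13.8%), and both had an adjusted p of 0.193 (DESeq2). With animals as a block, limma called 0 members, beside 0 of 58 (0%), and passed 0 members before adjustment, beside 6 of 58 (10.3%).

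The largest fitted change among members was that of let-7b, 2.53 on the log2 scale (standard error 1.47, limma, adjusted p = 0.476). Its normalized counts were 292, 50.6 and 981 at estrus and 96.9, 47.2 and 15.5 at diestrus in animals 1, 2 and 3. let-7f changed by 2.33 (standard error 1.45, limma, adjusted p = 0.53), from counts of 43.7, 10.8 and 211 at estrus and 11.4, 8.14 and 6.87 at diestrus. Both had a higher value at estrus in all 3 animals, but in animal 2 the counts behind this were 28 and 29 reads for let-7b and 6 and 5 for let-7f. As shares of the library both were slightly lower at estrus in that animal, so the direction in animal 2 flips with the scaling.

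let-7a-5p changed by 2.16 (standard error 1.47, limma, adjusted p = 0.552), from 389, 52.4 and 482 normalized counts at estrus and 88.3, 68.4 and 17.2 at diestrus. let-7c changed by 1.59 (standard error 1.46, limma, adjusted p = 0.626), from 380, 52.4 and 138 at estrus and 79.8, 63.5 and 18.9 at diestrus. let-7i and let-7e changed by 1.81 and 1.76, with standard errors of 1.65 and 1.67. Resting on few reads, both moved with the pseudocount: at 0.1 they were 2.99 and 2.87, and at 10 they were 0.67 and 0.70. The 95% intervals of all 6 changes included 0; that of let-7b ran from -0.37 to 5.42, so a large change in its level is neither shown nor bounded tightly.

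On the deposited scale the whole table leaned the same way. All 6 tested members had a change above 0, as did 42 of the 58 miRNAs (72.4%), and the median change was 1.99 for the 6 members and 0.90 for the 58. Relative to that median the changes were 1.63 for let-7b, 1.43 for let-7f, 1.26 for let-7a-5p, 0.92 for let-7i, 0.86 for let-7e and 0.69 for let-7c. With totals that leave out miR-1246 the median of all 58 moved to -0.19 and that of the members to 0.98. The count of miRNAs above 0 was then 26 of 58, and it was 33 after quantile normalization and 34 after median centring, while all 6 members were above 0 in these 3 fits. Of the 6 members, 3 (let-7b, let-7e and let-7f) had higher normalized counts at estrus in all 3 animals, where 10 of the 58 (17.2%) did. In animal 2 this rests on the scaling for let-7b and let-7f, as given above, and on 1 read against 0 for let-7e. In 0 of the 6 did the phases not overlap, against 4 of the 58 (6.9%). With no filter all 9 members were fitted among 273 miRNAs, and the changes of the 3 added ones were 1.69 for let-7g, 0.67 for miR-98 and 0.59 for let-7d (limma, adjusted p = 0.571, 0.746 and 0.781). let-7g had normalized counts that did not overlap, 3.62 to 9.36 at estrus and 0 to 3.26 at diestrus, but its shares of library reads did. The nearest values, 3.62 and 3.26, were 2 reads each in animal 2, so only the scaling set them apart. How many of the 273 miRNAs did not overlap was not counted.

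Single libraries set these values. Without the estrus library of animal 2, let-7b was called, with a change of 3.65 (limma, adjusted p = 0.0427, from 5 libraries), and let-7a-5p reached 3.17 (limma, adjusted p = 0.0899). In that fit 6 of all 58 miRNAs (10.3%) were called after adjustment, and 11 (19%) passed before it, among them these 2 members. Without the estrus library of animal 3 the change was 1.53 for let-7b, 1.26 for let-7f and 1.09 for let-7i. The change of let-7c was 0.87 without the estrus library of animal 1 and 0.97 without the diestrus library of animal 3. Without 1 library the changes of let-7e ran from 0.91 to 2.59, lowest without the estrus library of animal 1, and those of let-7i from 1.09 to 2.54. Across all alternatives the adjusted p of let-7b ranged from 0.0427 to 0.901. In the fit of all 6 libraries limma found no variance among miRNAs beyond its trend, which put 232 degrees of freedom behind each test. The fit without the estrus library of animal 2 had 174 and that without the estrus library of animal 3 had 4.76, so the p-values also differ in what they rest on.

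**Figure D4:**
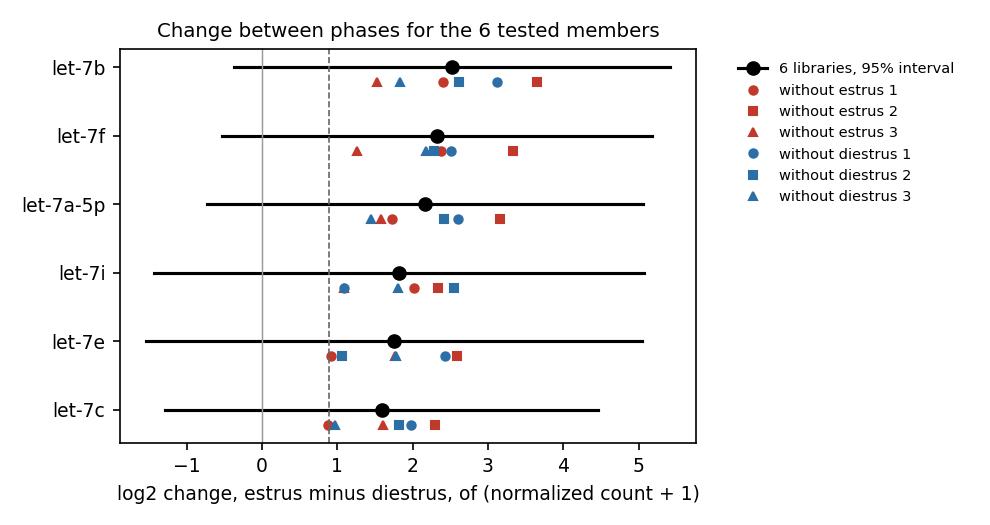
Change of each tested member between phases (black point, limma, with its 95% interval over 6 libraries) and the same change with each library left out (colored symbols). The dashed line is the median change of all 58 tested miRNAs, 0.90; each black interval crosses 0, and leaving out the estrus library of animal 2 gives 3.65 for let-7b.

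Members differed in how alike their patterns were. Across the 6 libraries, on the log2(normalized count + 1) scale, Pearson's r was 0.97 between let-7a-5p and let-7b, 0.95 between let-7b and let-7f and 0.92 between let-7a-5p and let-7c. It was 0.67 between let-7c and let-7f and 0.14 between let-7e and let-7i, the lowest among the 6 tested members. These are descriptions over 6 libraries from 3 animals, whose values share each library's depth and scaling.

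Of the 52 tested miRNAs outside the family, miR-200c had the highest Pearson's r with the summed family (r 0.91, Spearman's rho 0.75 over 6 libraries). By r, miR-423-5p (r 0.89, rho 0.94) and miR-375 (r 0.89, rho 0.85) followed closely. The order depends on the measure: by rho miR-423-5p came first, and several miRNAs lay above miR-200c. miR-200c, a miRNA typical of epithelial cells, had 78, 1 and 1093 estrus reads and 0, 2 and 0 diestrus reads. miR-423-5p had 32, 3 and 608 estrus reads and 2, 5 and 1 diestrus reads. miR-375, found in secretory epithelium, had 25, 0 and 659 reads at estrus and none at diestrus. All 3 were highest in the estrus library of animal 3 and next highest in that of animal 1, as the family was. They were picked from these data for their r, so this shared order follows from the choice. miR-200c and miR-375 passed the filter only through their estrus values.

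Markers of possible source cells moved with the family in part. The epithelial list (8 miRNAs, 7 in the table) summed to 1.10%, 0.163% and 9.41% of reads at estrus and to between 0.252% and 0.356% at diestrus. At diestrus 4 or 5 of its 7 members had 0 reads, and 4 did in the estrus library of animal 2. miR-375 had 0 reads in all 3 diestrus libraries and in that estrus library. miR-205 of the same list did not share the pattern of the family (Pearson's r 0.04 over 6 libraries): it held 0.101%, 0.119% and 1.13% of reads at estrus and 0.232%, 0.216% and 0.317% at diestrus, with a fitted change of -0.29 (limma). The leukocyte list (5 miRNAs, 4 in the table) summed to 0.575%, 1.07% and 2.27% at estrus and to 3.68%, 1.77% and 3.62% at diestrus. The 2 leukocyte markers that passed the filter ran opposite to the family over the 6 libraries, with Pearson's r of -0.70 for miR-223 and -0.89 for miR-142-5p. The other 2 in the table, miR-150 and miR-155, had 0 reads outside the estrus library of animal 3. Of the 3 erythrocyte markers, miR-486 was in the table, with at most 0.0296% of reads. The part of any cell source in the family's level was not tested.

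The miRNAs that mammals transcribe near let-7 genes, miR-99a-5p, miR-99b, miR-100, miR-125a and miR-125b, were compared with their neighbours. Of these 5, 3 passed the filter, and limma called 0 of those 3 after adjustment, beside 0 of all 58 (0%). miR-99a-5p, which passed the filter only through its estrus values, changed by 3.66 (limma, unadjusted p = 0.018, adjusted p = 0.258). Before adjustment, 4 of all 58 (6.9%) passed as higher at estrus. miR-99a-5p had 1794, 1 and 53 estrus reads and 1, 0 and 1 diestrus reads. It exceeded let-7c in the estrus library of animal 1 (1794 against 965 reads) and was below it in that of animal 3 (53 against 767). miR-125b had 57, 4 and 736 estrus reads and 6, 8 and 9 diestrus reads, so it lay near let-7c in both libraries of animal 3 (736 against 767, and 9 against 11) and below it in the other 4. miR-125a, a neighbour of let-7e, had 41, 1 and 370 estrus reads and 1, 6 and 7 diestrus reads, whereas let-7e was higher in animal 1 than in animal 3. miR-99b and miR-100 did not pass the filter. miR-99b had 2, 3 and 55 estrus reads and 1, 0 and 1 diestrus reads. miR-100 had 19, 0 and 92 estrus reads and 0 reads in each diestrus library.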

How the data were processed

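Cell-free saliva RNA was made into QIAseq miRNA libraries with unique molecular indices, per the labels' protocols. The submitters' processing notes name cutadapt, UMI-tools, FastQC, Bowtie, SAMtools, featureCounts and DESeq2, without versions or roles; the miRNA reference, and whether indices were collapsed, are not given in the sources used here. The authors deposited 1 table of normalized counts, a size-factor scaled signal, with 1 column per sample. All values (100%) were whole multiples of 1 step within 0.001, so reads were recovered as value over step, though 3 columns hold few low values and their steps rest on fewer of them; depth was 3015 to 27036 reads. Intervals are 95% Wilson intervals, and the floor is 3 reads.

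The comparison used limma 3.58.1 in R 4.3.3 with a trend on log2(value + 1) for the 58 miRNAs with a mean of at least 5; edgeR 4.0.16 and DESeq2 1.42.0 on the recovered reads were alternatives. The animal number in the labels pairs the samples; deviations of same-animal libraries correlated at -0.0046, 0.37 and 0.30, and those of different animals at -0.41 to 0.34, so the pairing rests on the labels. Single values used exact permutation tests (Python 3.11.15, scipy 1.17.1). The fit was first run on simulated data with planted changes and a set spread, not the spread of these libraries. No result here rests on that run. The text names all 9 members, the 3 other miRNAs with the highest Pearson's r to their sum and 5 neighbouring miRNAs. It also gives leukocyte, epithelial and erythrocyte lists. Members and lists were chosen with earlier results of these data known. Mature sequences and genomic positions were not analysed here.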

Additional observations from a re-analysis of the deposited data

How the results depend on the processing

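The count of called members was 0 under the 13 alternatives that kept all 6 libraries. Over all miRNAs tested it was 1 for the column total, the total without miR-1246 and quantile normalization and 0 for the other 10. Members called ranged from 0 to 1 over the 6 fits that each left out 1 library; the 1 was let-7b without the estrus library of animal 2 (change 3.65), in a fit that called 6 of all 58 miRNAs. The count at an unadjusted p below 0.05 was 2 for DESeq2 on recovered reads (8 of all 58) and 0 for the other 12, where 2 to 16 of all miRNAs tested passed (16 of 273 with no filter). It ranged from 0 to 2 without 1 library, with 11 of all 58 passing in the fit that gave 2. With the replicate block both counts were 0 (0 and 6 of all 58) and no call changed. The changes of the 6 members were above 0 in each alternative that gave a value; for let-7c they ran from 0.28 to 1.85 with all libraries and for let-7b from 1.22 to 3.06. With a mean of at least 50, let-7e, let-7f and let-7i gave no value.

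The difference in family share, 17.0 percentage points, was 12.2 without miR-1246 in the total and 9.24 without let-7b, and ranged from 7.27 to 25.8 without 1 library. That in the share of let-7b among family reads, 8.48, was 11.0 without let-7a-5p in the sum and ranged from 0.026 to 13.6. The difference in members detected, 1.33, was 2.67 at 3 reads or more and 1.34 at equal depth, and ranged from 0.83 to 2.00. Libraries with 38 to 123 family reads limit what can be said of the rarer members. What caused these shifts was not tested.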
